A study of Mus musculus with 60 samples.

Results

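RNA from the hippocampus of mice at 8 weeks of age was compared between the AppNL-G-F line (NLGF) and wild type (WT), over the 20 libraries that the labels place at week 8, of 60 libraries in the whole series. The 10 NLGF and the 10 WT libraries each hold 5 labelled female and 5 labelled male, and membership follows the labels alone. AppNL-G-F is a knock-in line: the mouse App gene carries a humanised amyloid-beta sequence and mutations of familial Alzheimer's disease, and no transgene promoter drives it. WT carries no such allele, and no treatment is stated for either genotype. The labels name neither the animals, the zygosity nor the strain, and p-values can speak only to the variation among these libraries, of which an unknown part may be technical. RNA came from fresh-frozen hippocampus, and ribosomal RNA was depleted from the total RNA that went into each library.

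The amyloid precursor protein is a membrane protein of neurons that is cut by secretases, and the cut by beta-secretase followed by gamma-secretase releases amyloid-beta. In plaque-forming mouse lines, microglia around plaques turn on a shared set of genes led by Trem2, Tyrobp, Apoe, Cst7, Itgax and Clec7a, and nearby astrocytes raise Gfap and Serpina3n. Week 8 is the young adult age in this series, between week 3 and week 24, and the comparison asks how the hippocampus of NLGF mice differs from that of WT mice before the stronger response seen at week 24. The description below therefore gives levels, the range of effects that the data allow, and the spread between libraries.

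Total counts lay between 20.2 and 35.2 M per library in NLGF (median 31.3 M) and between 19.3 and 28 M in WT (median 23.7 M). Xist and the Y-linked genes matched the sex label in all 20 libraries, and no 2 libraries held identical counts. Markers of the hippocampus were present in every library: the 16 dentate granule cell genes summed to 1169 to 2156 CPM (counts scaled to the library total, in parts per M) in NLGF and 929 to 2115 CPM in WT, and the 18 genes of CA field pyramidal cells to 1512 to 2043 CPM in NLGF and 1366 to 2281 CPM in WT. The 15 choroid plexus genes ranged far more widely, from 493 to 8311 CPM in NLGF and from 194 to 7705 CPM in WT, with NLGF male 4 and WT female 3 the highest of their genotypes. This is tissue next to the hippocampus that a dissection can carry along.

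Some libraries stood apart from the others of their genotype. A score of age was built from the 50 genes most clearly higher and the 50 most clearly lower in WT at week 8 than in WT at week 3, chosen with no NLGF library. It was -0.82 in the library labelled NLGF female 5, against 0.45 to 0.72 in the other 9 NLGF libraries and 0.07 to 0.84 in the WT libraries of week 8. At week 3 the score lay between -1.57 and -0.16 in NLGF and between -1.81 and -0.96 in WT. The library labelled NLGF female 5 thus went against its age label: 46 of the 50 genes that are higher at week 3 were above all other 19 week 8 libraries there. NLGF female 1 is week 8 by its title and 3 weeks by its age field. Its score of 0.66 lay among the week 8 libraries, and it was kept with week 8. In WT, female 1 and male 3 lay at one end of the first principal component (37.7 and 37.0, against -42.4 for WT female 3 at the other end), which held 21.6% of the variance. Counts of the mitochondrial genome took 0.566% of WT female 1 and 1.14% of WT male 3. They took 1.6 to 2.78% of the NLGF libraries and 1.22% (WT male 2) to 3.38% (WT female 3) of the other WT libraries. On this measure WT male 3 was close to WT male 2. The 3 libraries set aside below as standing apart are the library labelled NLGF female 5, WT female 1 and WT male 3. They were chosen after the data were seen. The counts over all genes, and several of the results that these 3 libraries move, are given with and without them. Spreads by list are given with all libraries only. WT female 3 is not among the 3, although its root mean square distance from the mean of the other WT libraries was 0.486 (log2 CPM). That of WT male 3 was 0.475. The number of genes at an unadjusted p under 0.05 is also given without WT female 3.

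**Figure D1:**
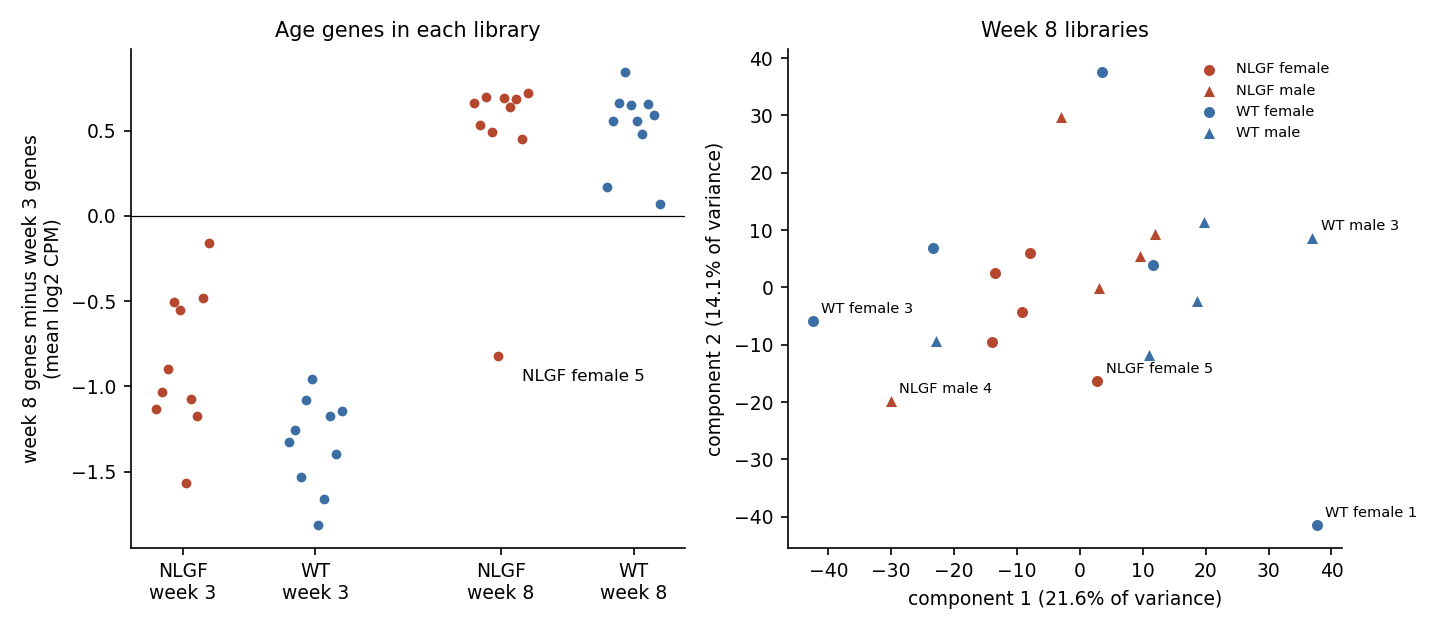
Left, the age score of each library (mean log2 CPM of the week 8 genes minus that of the week 3 genes) by genotype and week, 1 point per library. Right, the first 2 principal components of the 20 week 8 libraries, coloured by genotype with circles for females and triangles for males. The library labelled NLGF female 5 lies at -0.82 among the week 3 libraries, and WT female 1 and WT male 3 have the highest values of the first component but lie apart on the second.

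No gene passed the test between NLGF and WT at week 8. Of 16494 genes tested with edgeR's quasi-likelihood test, 0 reached an adjusted p under 0.05 (0%), and the smallest adjusted p was 0.633. At an unadjusted p under 0.05 there were 1292 genes (7.83%), of which 523 (3.17%) had a higher and 769 (4.66%) a lower estimate in NLGF. In no gene did the 10 NLGF libraries lie wholly above or wholly below the 10 WT libraries (0 of 16494, 0%). Without the library labelled NLGF female 5, edgeR called 0 genes and 1274 had an unadjusted p under 0.05. Without WT female 1 and WT male 3 it called 0, with 1019 at that p, and without all 3 it called 0, with 964. The number at an unadjusted p under 0.05 depended most on WT female 3: without it 2123 genes had such a p, and 0 were called.

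The data bound the effect of the genotype closely for most genes. The 95% interval of the fold change lay wholly within 1.5-fold in either direction for 13711 genes (83.1%), within 1.25-fold for 8759 (53.1%) and within 2-fold for 16062 (97.4%). The median interval reached 0.21 on the log2 scale on either side of its estimate, a factor of 1.15. Precision followed level: the interval reached 0.51 on either side in the median gene under 1 CPM, 0.33 between 1 and 5 CPM, 0.20 between 5 and 20 CPM, 0.16 between 20 and 100 CPM and 0.15 above. The share within 1.5-fold was 25.9% under 1 CPM, 97.9% between 20 and 100 CPM and 97.9% above. The counts by list below stand beside these shares and the 7.83% of all genes at an unadjusted p under 0.05. Estimates were small throughout, with 100 genes (0.606%) past 1.5-fold and 12 past 2-fold, none of them called. Without the 3 libraries that stood apart, 13667 of 16681 genes tested had an interval within 1.5-fold.

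**Figure D2:**
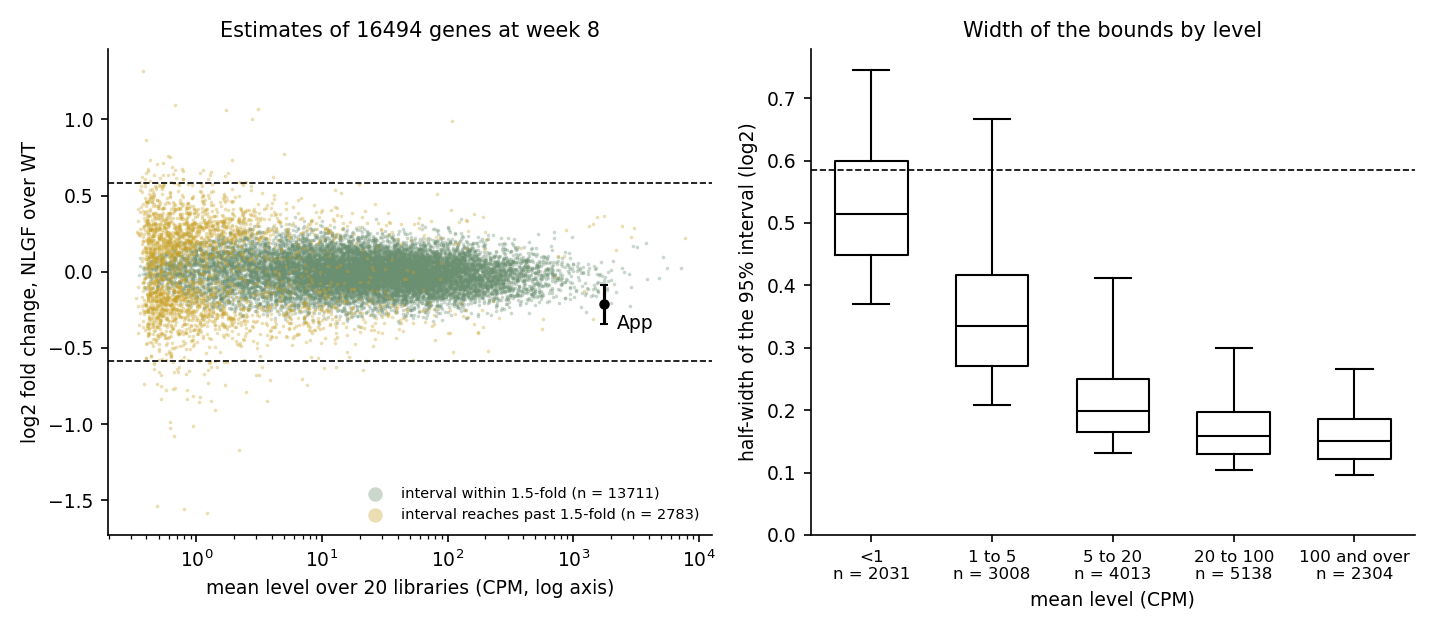
Left, the genotype effect (log2 fold change, NLGF over WT) against the mean level (CPM, log axis) for 16494 genes, with App marked with its 95% interval and dashed lines at 1.5-fold. Right, how far the 95% interval reached from its estimate (log2) by level, as boxes of the quartiles with whiskers at the 5th and 95th percentiles. The median box narrows from 0.51 under 1 CPM to 0.15 at 100 CPM and over.

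App itself, in which the knock-in mutations lie (chromosome 16, 84949685 to 85173766, mm10), is an abundant transcript of neurons. Its level was 1513, 1638 and 1746 CPM in NLGF (lowest, median and highest library), against 1620, 1861 and 2383 CPM in WT. No NLGF library was above the WT median, although the groups overlapped. The share of all genes with such a pattern is not given here. Counts of libraries past the WT median, here and below, thus only describe the genes named. Many of those genes were named for a small p from the same values. Over 10 libraries each, the mean of App was 1638 ± 63.5 CPM in NLGF, against 1899 ± 233 CPM in WT (SD). The log2 fold change was -0.21 ± 0.0619 (SE), with an interval from 0.789 to 0.943 of the WT level. Its unadjusted p was 0.00229 and its adjusted p 0.633 in edgeR's fit over all genes. WT female 1 (2383 CPM) and WT male 3 (2216 CPM) were the highest libraries, and without both the estimate was -0.14. Without these and the library labelled NLGF female 5 it was -0.14 ± 0.0451. The estimate was negative under all 36 settings tried, and its adjusted p lay between 0.0816, with DESeq2 on all 60 libraries, and 0.986 in females alone.

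The authors' deposited table lists 4 genes for week 8, all lower in NLGF: App with a log2 fold change of -0.14 (adjusted p = 0.0308), Cpsf7 with -0.13 (0.0308), Fam193a with -0.12 (0.0516) and Tnfaip1 with -0.12 (0.0516). The mean counts in the authors' deposited table were matched to within 0.03% by DESeq2 size factors over all 60 libraries, and were 5.81% to 11.7% away from those over the 20 week 8 libraries. The log2 fold changes of DESeq2 on all 60 libraries were -0.22 for App, -0.17 for Cpsf7, -0.16 for Fam193a and -0.17 for Tnfaip1. All 4 were farther from 0 than the deposited ones. The reason was not tested, so the deposited fold changes may not be on the same footing as the estimates given here. In the present edgeR fit all 4 were lower too, and none was called. Cpsf7, a subunit of the complex that directs the 3′ end processing of mRNA, stood at 46.7, 49.1 and 54.1 CPM in NLGF (lowest, median, highest) and at 50.4, 54.7 and 64.5 CPM in WT. Fam193a stood at 62.7, 66.6 and 70.2 CPM in NLGF and at 68.7, 74.1 and 83.1 CPM in WT. Tnfaip1, an adaptor of a ubiquitin ligase, stood at 39.5, 42.8 and 47.1 CPM in NLGF and at 46.1, 46.9 and 53.2 CPM in WT. For each of the 3, at most 1 NLGF library exceeded the WT median. Their log2 fold changes were -0.17 ± 0.0476, -0.16 ± 0.0436 and -0.17 ± 0.0446, in that order.

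Other genes of amyloid precursor processing differed little. All 26 on that list were tested: 0 were called, 3 had an unadjusted p under 0.05 in the lower direction (App, Aplp2 and Apbb1), the median log2 fold change was -0.04 (-0.01 over all genes), and 25 had an interval within 1.5-fold. Aplp2, a paralog of App, stood at 434, 464 and 489 CPM in NLGF and 464, 498 and 642 CPM in WT, a log2 fold change of -0.17 ± 0.0571. Aplp1, the neuronal paralog, had -0.11 ± 0.0822. Apbb1, an adaptor that binds the intracellular tail of the protein, had -0.21 ± 0.0959. Bace1, the beta-secretase, had a median of 35.1 CPM in NLGF, against 38.4 CPM in WT. The interval of Bace1 allowed 0.814 to 1.07 of the WT level. The gamma-secretase subunits were bounded as closely: Psen2 between 0.850 and 1.06, Ncstn between 0.954 and 1.12, Psenen between 0.954 and 1.23 and Aph1a between 0.802 and 1.09. So was the main alpha-secretase Adam10, between 0.885 and 1.10. Of the proteases that degrade amyloid-beta, Ide lay between 0.867 and 1.28 and Mme, which encodes neprilysin, between 0.873 and 1.34. Bace2 was the member outside 1.5-fold, at medians of 2.80 CPM in NLGF and 3.71 CPM in WT with bounds of 0.580 to 1.26.

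**Figure D3:**
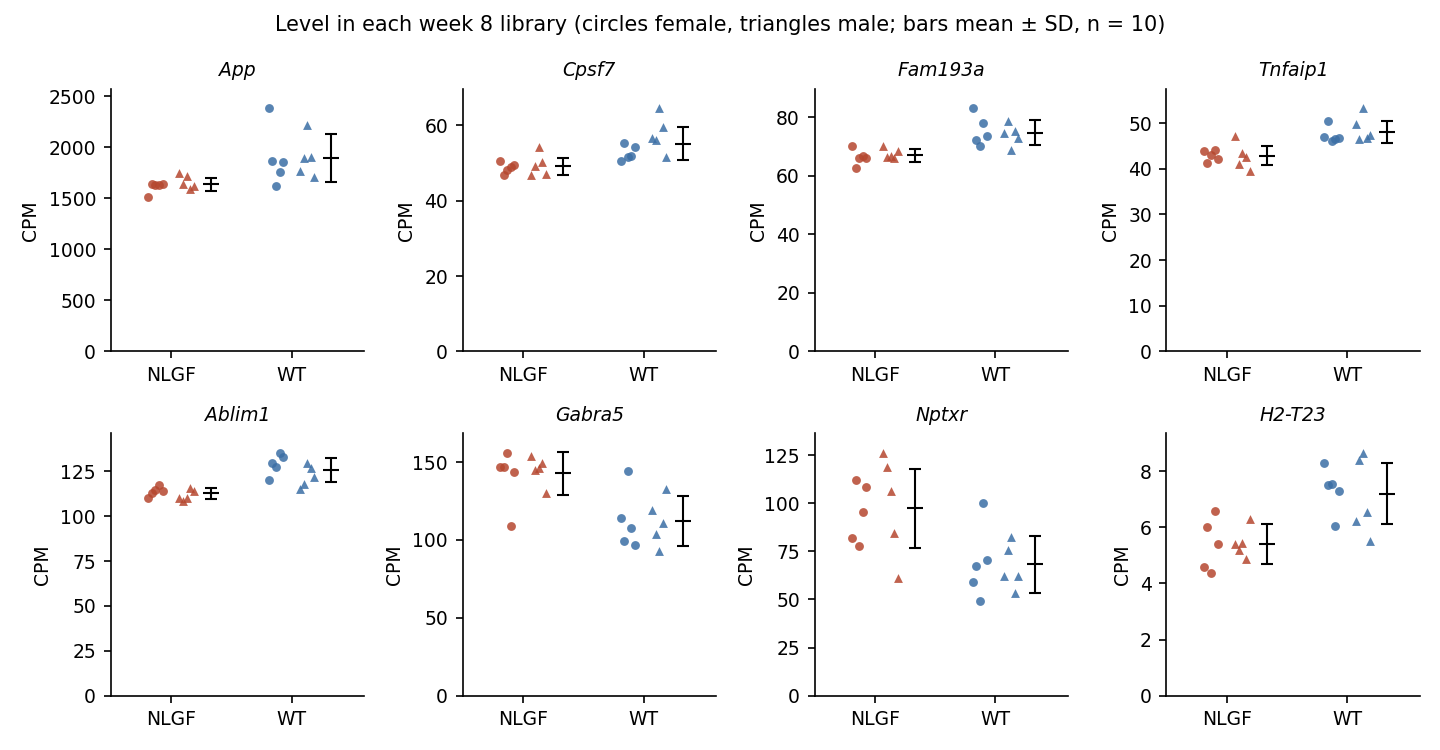
Level in CPM of 8 genes in each week 8 library, NLGF left and WT right, circles for females and triangles for males, with the mean ± SD (n = 10) beside them. In every panel the genotypes overlap. For App the NLGF libraries lie between 1513 and 1746 CPM and the WT libraries between 1620 and 2383 CPM.

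The neighbours of App on chromosome 16 gave a local comparison. Of 71 genes in the table whose midpoint lies within 5 Mb of App, 21 were tested, 0 were called, 0 had an unadjusted p under 0.05 and the median log2 fold change was -0.01. The smallest p values belonged to Ltn1, a ubiquitin ligase of stalled ribosomes (0.13 ± 0.0687), the metalloprotease Adamts5 (-0.32 ± 0.186) and the mitochondrial ribosome gene Mrpl39 (-0.08 ± 0.0571).

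Microglial genes known from plaque-forming lines were near their WT levels at week 8. Of 30 genes on the list of plaque-associated microglia, 23 had enough counts to be tested. None was called, none had an unadjusted p under 0.05, the median log2 fold change was -0.01 and 18 had an interval within 1.5-fold. The summed level of the list was 2706 to 3305 CPM in NLGF and 2738 to 3305 CPM in WT. Most of this sum came from a few abundant genes that other cells also express. In NLGF female 1, for example, Apoe gave 1035 and Fth1 957 of 2959 CPM. The sum therefore says little about low members such as Trem2 and Tyrobp. In bulk tissue, fewer cells of a type and less RNA per cell cannot be told apart, so these are levels in the tissue. Trem2, a lipid-sensing receptor of microglia, stood at 5.69, 6.45 and 8.32 CPM in NLGF and at 4.45, 6.28 and 8.66 CPM in WT. Its log2 fold change was 0.04 ± 0.114, with bounds of 0.875 to 1.21. Tyrobp, the adaptor through which Trem2 signals, stood at 5.99, 7.49 and 8.16 CPM in NLGF and at 4.97, 6.92 and 9.20 CPM in WT (0.04 ± 0.0987). The 10 NLGF values of both genes lay inside the WT range.

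The lysosomal proteases named here and Mpeg1 were more abundant than Trem2 and Tyrobp, with narrower bounds. Ctss, the protease cathepsin S, which is on the antigen presentation list, stood at 31.2, 33.6 and 39.6 CPM in NLGF and at 29.7, 34.8 and 40.7 CPM in WT, with bounds of 0.878 to 1.04. Mpeg1, a pore-forming protein of phagocytes, stood at 17.6, 21 and 22.3 CPM in NLGF and at 16.5, 20.9 and 23.5 CPM in WT, with bounds of 0.887 to 1.09. Ctsb lay between 0.928 and 1.05 of WT and Ctsd between 0.885 and 1.13. Apoe, the lipid carrier made by astrocytes and by activated microglia, stood at 819, 1010 and 1105 CPM in NLGF and at 750, 1084 and 1274 CPM in WT (-0.13 ± 0.0780). Spp1, which encodes osteopontin, had the lowest estimate on the list and the widest bounds, -0.55 ± 0.368 with 0.401 to 1.16. Its WT values ran up to 11.7 CPM in WT female 3, where the choroid plexus genes were highest in WT, against 1.52 to 3.86 CPM in NLGF. Spp1 was 6.45 CPM in WT male 5, the next highest WT library on the choroid plexus list. It was 2.17 CPM in NLGF male 4, the highest of all libraries on that list, and 4.24 CPM in WT male 3, the lowest. In WT female 2, with 809 CPM on that list, Spp1 was 5.97 CPM. In WT female 4, with 4514 CPM on it, Spp1 was 1.56 CPM. What part choroid plexus or any other border tissue had in the Spp1 values was not tested.

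The 7 members that were too low for the week 8 test were near the limit of detection in both genotypes. At a limit of 3 counts, the floor was 0.0853 to 0.156 CPM per library. Cst7 (cystatin F) had 1 to 8 counts per NLGF library and 2 to 10 per WT library. Itgax, an integrin of activated phagocytes, had 3 to 13 in NLGF and 3 to 11 in WT. Clec7a, a receptor for fungal glucan, had 2 to 10 in NLGF and 1 to 14 in WT. The chemokines Ccl3 and Ccl4 had 0 to 8 and 0 to 4 in NLGF, against 0 to 2 and 0 to 5 in WT. Ch25h, a hydroxylase of cholesterol, had 5 to 27 counts in both, and the inhibitory receptor Lilrb4a 1 to 7 in NLGF and 0 to 4 in WT. These counts overlapped between the genotypes for all 7. In the edgeR fit over weeks 8 and 24 together, which tested more genes, the week 8 log2 fold change was -0.75 ± 0.405 for Cst7, -0.69 ± 0.353 for Clec7a and -0.10 ± 0.267 for Itgax. Cst7 was also tested in 3 alternative settings at week 8 and called in none, with adjusted p from 0.531 to 0.719.

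Homeostatic microglial genes gave the same kind of bound. All 20 were tested: 0 were called, 0 had an unadjusted p under 0.05, the median was 0.01 and 18 lay within 1.5-fold. Cx3cr1, the fractalkine receptor, stood at 39.6, 45.1 and 49.7 CPM in NLGF and at 32.2, 42.4 and 49.3 CPM in WT. Csf1r, the receptor that microglia need to survive, stood at 91.1, 96.2 and 105 CPM in NLGF and at 74.0, 92.6 and 137 CPM in WT, with bounds of 0.898 to 1.11. Tmem119 had -0.14 ± 0.112. P2ry12, a purine receptor of resting microglia, had 0.23 ± 0.166. All 10 NLGF values of P2ry12 (19.3 to 30.1 CPM) were above the WT median of 18.6 CPM but within the WT range of 11.3 to 31.6 CPM. Its spread was 0.19 in NLGF and 0.56 in WT (SD of log2 CPM).

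Immune pathways beyond these lists held a few genes with small unadjusted p values and no call. Of 17 complement genes 0 had an unadjusted p under 0.05, and C1qb, a chain of the C1q recognition complex, lay between 0.95 and 1.16 of WT. C4b, which astrocytes and oligodendrocytes make, stood at 25.9, 36.0 and 41.3 CPM in NLGF and at 23.5, 37.5 and 70.2 CPM in WT. C4a is a near-identical copy, so reads may be split between C4a and C4b. Of 18 genes of antigen presentation the median was -0.09 (5 positive, 13 negative, and -0.12 to -0.03 over the settings tried) and 1 had an unadjusted p under 0.05. This was H2-T23, a class I gene whose product presents leader peptides to natural killer cells, at 4.35, 5.40 and 6.57 CPM in NLGF and 5.50, 7.4 and 8.65 CPM in WT. Its log2 fold change was -0.41 ± 0.0979 (unadjusted p = 0.000374, adjusted p = 0.633 in edgeR's fit), and no NLGF library was above the WT median. Class I genes are a family of close copies, so its counts are uncertain. B2m, the chain shared by class I molecules, had 0.24 ± 0.167.

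Interferon genes did not lean to either side. Of 18 tested, the median was -0.00195, with Irf7, a regulator of interferon genes, at 0.35 ± 0.121 and Ifit3 at -0.36 ± 0.124 the 2 with an unadjusted p under 0.05. Of 15 genes of Toll-like receptors and the inflammasome, 13 had a positive estimate, and the median of 0.19 lay between 0.09 and 0.25 over the settings tried. Il18, the cytokine that the inflammasome releases, had an unadjusted p of 0.0227, the only one of the 15 under 0.05. It stood at 5.94, 7.67 and 8.86 CPM in NLGF and at 3.19, 5.21 and 8.95 CPM in WT. The median of this list was 0.09 without WT female 1 and WT male 3, and then 0 members had an unadjusted p under 0.05.

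Lysosomal genes were among the most closely bounded, though 97.9% of all genes between 20 and 100 CPM also had an interval within 1.5-fold. All 28 lysosomal genes tested had such an interval, their median was -0.01 and the summed level was 3876 to 4321 CPM in NLGF and 4025 to 4577 CPM in WT. Psap, the precursor of the saposins, was the member with an unadjusted p under 0.05 (-0.13 ± 0.0547), at medians of 1511 CPM in NLGF and 1597 CPM in WT. With WT female 1 and WT male 3 left out, 0 lysosomal genes had such a p, and 1 had with all 3 libraries that stood apart left out. Cholesterol synthesis was bounded as well, with 23 of 24 genes within 1.5-fold and 0 at an unadjusted p under 0.05. Of 22 Alzheimer risk genes 20 lay within 1.5-fold, and Mapt, which encodes tau, was the member with an unadjusted p under 0.05. It stood at 429, 483 and 527 CPM in NLGF and at 414, 567 and 633 CPM in WT (-0.17 ± 0.0708). With WT female 1 and WT male 3 left out, 0 risk genes had such a p.

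Among reactive astrocyte genes 17 of 21 were tested and 3 had an unadjusted p under 0.05, all with higher estimates in NLGF. Serpina3n, a secreted protease inhibitor, stood at 25.4, 38.7 and 45.0 CPM in NLGF and at 21.3, 28.2 and 48.9 CPM in WT. Its log2 fold change was 0.33 ± 0.127, with 9 of 10 NLGF libraries above the WT median (unadjusted p = 0.0172, adjusted p = 0.633 in edgeR's fit). The other 2 were Srgn, a proteoglycan core protein of haematopoietic cells and endothelium (0.40 ± 0.166), and S100a6 (0.31 ± 0.142). Gfap, the filament protein of astrocytes, was not among them: it stood at 239, 345 and 446 CPM in NLGF and at 200, 369 and 559 CPM in WT, with bounds of 0.783 to 1.18. Over the list the median was 0.04. With WT female 1 and WT male 3 left out, 1 member had an unadjusted p under 0.05, and 2 had with all 3 libraries that stood apart left out. Of 20 general astrocyte genes 19 lay within 1.5-fold. Glul, the glutamine synthetase (-0.16 ± 0.0748), and Aldh1l1 (-0.19 ± 0.0885) were the 2 with an unadjusted p under 0.05, both with 0 of 10 NLGF libraries above the WT median. That count comes from the same values as the p, and its share over all genes is not given here. With WT female 1 and WT male 3 left out, 0 general astrocyte genes had such a p. Slc1a2, the main glutamate transporter, stood at 4924, 5578 and 6667 CPM in NLGF and at 4863, 5538 and 6253 CPM in WT.

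Neuronal genes varied within narrow limits. Of 27 genes of synaptic vesicles and the postsynaptic density the median was -0.06, 25 lay within 1.5-fold, and 4 had an unadjusted p under 0.05, all lower. Among them Stx1a, a plasma membrane syntaxin of vesicle fusion, stood at 65.8, 87.3 and 114 CPM in NLGF and at 71, 120 and 182 CPM in WT (-0.40 ± 0.147). No NLGF library was above the WT median of Stx1a. Without WT female 1 and WT male 3, the median of the list was -0.00139, with 2 members at an unadjusted p under 0.05. Of the 16 excitatory neuron genes 14 lay within 1.5-fold, Camk2a between 0.845 and 1.12. Of 19 interneuron genes 18 lay within it, with Pvalb, the calcium buffer of fast-spiking cells, at -0.29 ± 0.110 and Cnr1, the cannabinoid receptor, at 0.16 ± 0.0741.

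Genes that follow neuronal activity had a low median that rested in part on 1 library. Of 21 immediate early genes 16 had a negative estimate, the median was -0.33, 0 were called, and only 9 had an interval within 1.5-fold. Arc, a synaptic protein that is made after activity, stood at 117, 164 and 276 CPM in NLGF and at 89.5, 231 and 604 CPM in WT (-0.52 ± 0.279). Egr1, an activity-induced transcription factor, stood at 107, 140 and 259 CPM in NLGF and at 83.9, 175 and 576 CPM in WT (-0.40 ± 0.283). WT female 5 was the highest library for both genes, and the list summed to 3017 CPM there, against 1027 to 1803 CPM in the other WT and 1147 to 1814 CPM in the NLGF libraries. Without WT female 5 the median was -0.15. In females alone the median was -0.70 and in males alone 0.11, and for Arc the effects were -1.05 in females and 0.01 in males. The female values include WT female 5. The difference of the list between the sexes was not tested, and that of Arc was not called. Bdnf, a neurotrophin, was the 1 member with an unadjusted p under 0.05, in the other direction (0.19 ± 0.0788). With WT female 1 and WT male 3 left out, 0 members had such a p.

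The genes of dentate granule cells had positive estimates in 14 of 16, with a median of 0.11 and none at an unadjusted p under 0.05. The median was 0.04 without NLGF female 1, whose sum on this list was the highest, and 0.06 without WT male 3. Prox1, the factor that sets granule cell identity, stood at 106, 148 and 254 CPM in NLGF and at 64.7, 143 and 187 CPM in WT. Of 18 CA field genes 16 lay within 1.5-fold, and Spink8 was the member with an unadjusted p under 0.05 (0.29 ± 0.109). Of 20 genes of immature neurons and proliferation 2 had such a p, both lower: the intermediate filament Nes of neural stem cells (-0.26 ± 0.0975) and Stmn1, a tubulin-binding protein (-0.39 ± 0.152).

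The oligodendrocyte list turned on a single library. Its 22 genes had a median log2 fold change of 0.15, with 20 positive estimates, 0 at an unadjusted p under 0.05 and 8 within 1.5-fold. The library labelled NLGF female 5, which stood with week 3 on the age score, summed to 17656 CPM on this list, against 4408 to 9498 CPM in the other NLGF libraries and 4590 to 11181 CPM in WT. Mbp, which encodes a main protein of the myelin sheath, was 5775 CPM there, against an NLGF median of 1892 CPM and a WT median of 2020 CPM. Without that library the median of the list was 0.00, and without all 3 libraries that stood apart it was -0.08. Precursor genes had a median of -0.03, with 14 of 15 within 1.5-fold, among them Pdgfra between 0.873 and 1.03.

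Transcripts of the mitochondrial genome had wide bounds despite their high levels. All 13 had a positive estimate, with a median of 0.32, 0 at an unadjusted p under 0.05 and 0 within 1.5-fold. The sum was 16296 to 27528 CPM in NLGF and 6046 to 32993 CPM in WT, so the NLGF libraries lay inside the WT range. COX1 stood at 6111, 8368 and 10137 CPM in NLGF and at 2735, 6946 and 11114 CPM in WT. Without WT female 1 and WT male 3 the median was 0.11. In females alone it was 0.0050 and in males alone 0.65, a difference of the list that was not tested. The nuclear genes of the same respiratory complexes were all within 1.5-fold (28 of 28, median 0.01). Sdhb, the iron-sulphur subunit of succinate dehydrogenase, stood at 71.6, 74.2 and 82.4 CPM in NLGF and at 54.4, 64.4 and 78.0 CPM in WT (0.22 ± 0.0640). Sdha, the flavoprotein of the same complex, had -0.15 ± 0.0700.

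Cytosolic ribosomal protein genes lay within 1.5-fold in 30 of 31, with a median of 0.01, 4 at an unadjusted p under 0.05 with higher and 2 with lower estimates. Rplp1, an acidic stalk protein, stood at 220, 244 and 296 CPM in NLGF and at 179, 205 and 247 CPM in WT (0.24 ± 0.0651). Rps14 had -0.36 ± 0.160, with 415 CPM in WT male 3 against a WT median of 199 CPM. Processed copies of ribosomal protein genes are common in the genome and make these counts uncertain. Replication-dependent histone genes had positive estimates in 13 of 13, with a median of 0.24 and 3 at an unadjusted p under 0.05, led by Hist1h2bc (0.36 ± 0.126). Their summed level was 196 to 275 CPM in NLGF, with the library labelled NLGF female 5 the highest, and 146 to 243 CPM in WT, with WT female 1 the lowest. Without the library labelled NLGF female 5 the median was 0.15. Without the 3 libraries that stood apart it was 0.11, with 1 member at such a p. Histone transcripts mostly lack a poly(A) tail and are near-identical copies, so reads may be split between them.

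Chromatin regulators, protein folding and the clock held single genes of small unadjusted p. All 28 chromatin regulators lay within 1.5-fold. Dnmt1, the maintenance DNA methyltransferase, stood at 59.6, 65.8 and 68.4 CPM in NLGF and at 60.0, 74.1 and 85.3 CPM in WT (-0.18 ± 0.0532), and Chd8 had -0.13 ± 0.0480. Of 22 genes of endoplasmic reticulum stress 17 had a negative estimate and 3 had an unadjusted p under 0.05: the lectin chaperones Calr (-0.16 ± 0.0660) and Canx (-0.19 ± 0.0798) and Manf (-0.18 ± 0.0807). All 16 heat shock genes lay within 1.5-fold, with Dnajb1 at -0.15 ± 0.0670. All 22 genes of the circadian clock and glucocorticoid response did too. Ciart, a repressor of the clock, stood at 6.52, 8.52 and 9.86 CPM in NLGF and at 7.13, 10.8 and 12.8 CPM in WT (-0.34 ± 0.105).

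Vessel and border tissues were compared as other sources of RNA. All 17 endothelial genes lay within 1.5-fold, and Cldn5, a tight junction protein, was the member with an unadjusted p under 0.05 (0.23 ± 0.0939). Of 18 genes of mural cells and meningeal fibroblasts 7 lay within it, with a median of -0.14, which was -0.04 without WT female 3. The 15 choroid plexus genes had a median of -0.13 and 0 within 1.5-fold, and this median had no stable sign. It was -0.85 without NLGF male 4, 0.28 without WT female 3 and 0.26 without WT male 5. Ttr, the transthyretin of that tissue, stood at 153, 439 and 4891 CPM in NLGF and at 13.3, 324 and 4699 CPM in WT. Its interval ran from 0.228 to 3.66 of WT. Of 22 genes of neighbouring brain regions 7 lay within 1.5-fold, and the habenular factor Lhx9 had an unadjusted p under 0.05 (0.40 ± 0.173). With WT female 1 and WT male 3 left out, 0 genes of that list had such a p.

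The genes with the smallest unadjusted p values show how large the clearest differences were. Among genes of at least 1 CPM with a higher estimate in NLGF, the first was Gabra5, the GABA-A receptor subunit of extrasynaptic receptors in the hippocampus. It stood at 109, 147 and 156 CPM in NLGF and at 93.1, 109 and 145 CPM in WT, a log2 fold change of 0.35 ± 0.0791. The unadjusted p was 0.000227 and the adjusted p 0.633 in edgeR's fit, with 9 of 10 NLGF libraries above the WT median. Nptxr, the membrane pentraxin that clusters AMPA receptors, had the largest estimate of the first 8: 61.3, 101 and 126 CPM in NLGF against 49.3, 64.8 and 100 CPM in WT (0.51 ± 0.131). The other 6 were Acot2 (0.27) and Mthfd2l (0.32), enzymes of the mitochondrion, Slc25a5 (0.20), its ADP/ATP carrier, Tceanc (0.50), Trnp1 (0.27) and Rplp1 (0.24).

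Among genes of at least 1 CPM with a lower estimate in NLGF, H2-T23 was first, followed by Cul7, a cullin scaffold, at 35.1, 39.5 and 46.7 CPM in NLGF and 40.2, 47.6 and 59.4 CPM in WT (-0.28 ± 0.0680). Magi3, a scaffold of cell junctions (-0.21), Smarca2, an ATPase of the BAF chromatin remodeller (-0.27), Ablim1, an actin-binding protein (-0.16), Pcbp3 (-0.25), Cacng7, an auxiliary subunit of AMPA receptors (-0.20), and Ccdc9 (-0.40) completed the 8. All 16 kept their sign under the 36 settings tried. Ablim1, at 108, 113 and 117 CPM in NLGF and 115, 127 and 135 CPM in WT, was called by DESeq2 on the 20 libraries (adjusted p = 0.0149, the smallest over the alternatives, which reached up to 0.986). With DESeq2 on all 60 libraries the called gene was Trh, which encodes thyrotropin-releasing hormone (-3.58, adjusted p = 0.00528). Trh passed the filter in only 2 other settings, where its adjusted p reached up to 0.719. Its level rested on WT male 3 with 22.1 CPM and WT male 5 with 5.47 CPM, and was at most 1.17 CPM in the other 18 libraries. Below 1 CPM, and chosen after their values were seen, Irs4 (-1.56 ± 0.349) and Asb4 (1.32 ± 0.304) had larger estimates. In edgeR's fit their unadjusted p values were 0.000183 and 0.000259, and neither was called.

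The spread between libraries was larger in WT than in NLGF. The median gene had an SD of 0.16 in NLGF and 0.27 in WT (log2 CPM over 10 libraries each), and WT was the larger in 83.9% of genes. The biological coefficient of variation, edgeR's estimate of the spread beyond counting error, was 14.5% in NLGF and 20.8% in WT. Without the library labelled NLGF female 5, WT was the larger in 86.4% of genes. Without WT female 1 and WT male 3, it was the larger in 70.7%, with medians of 0.16 in NLGF and 0.21 in WT, and the coefficient in WT was 17.3%. WT libraries also held fewer counts than NLGF libraries, and the part of depth in the difference was not tested. Genes are not independent of each other, so no test is attached to these shares.

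The lists differed in where the spread lay. It was widest in the choroid plexus list, with a median SD of 1.41 in NLGF and 2.02 in WT. Mitochondrially encoded genes had 0.29 in NLGF and 0.90 in WT, and cytosolic ribosomal genes 0.07 in NLGF and 0.25 in WT. Lists in which NLGF was the wider were oligodendrocytes and myelin (0.57 in NLGF, 0.39 in WT), their precursors (0.25 in NLGF, 0.23 in WT) and immature neurons (0.31 in NLGF, 0.29 in WT). These values include the library labelled NLGF female 5. It summed to 17656 CPM on the myelin list, against 4408 to 9498 CPM in the other NLGF libraries. On the precursor list it summed to 1415 CPM, against 849 to 1031 CPM. Spreads by list without that library are not given here. Among single genes of at least 10 CPM, the largest spreads belonged to Xist, Ddx3y and Kdm5d, which separate the sexes, and then to Ttr, Tmem72, Slc4a5, Aqp1 and Kcnj13, all of the choroid plexus. Aqp1, a water channel, ran from 1.41 to 41.6 CPM in NLGF and from 0.462 to 44.2 CPM in WT.

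**Figure D4:**
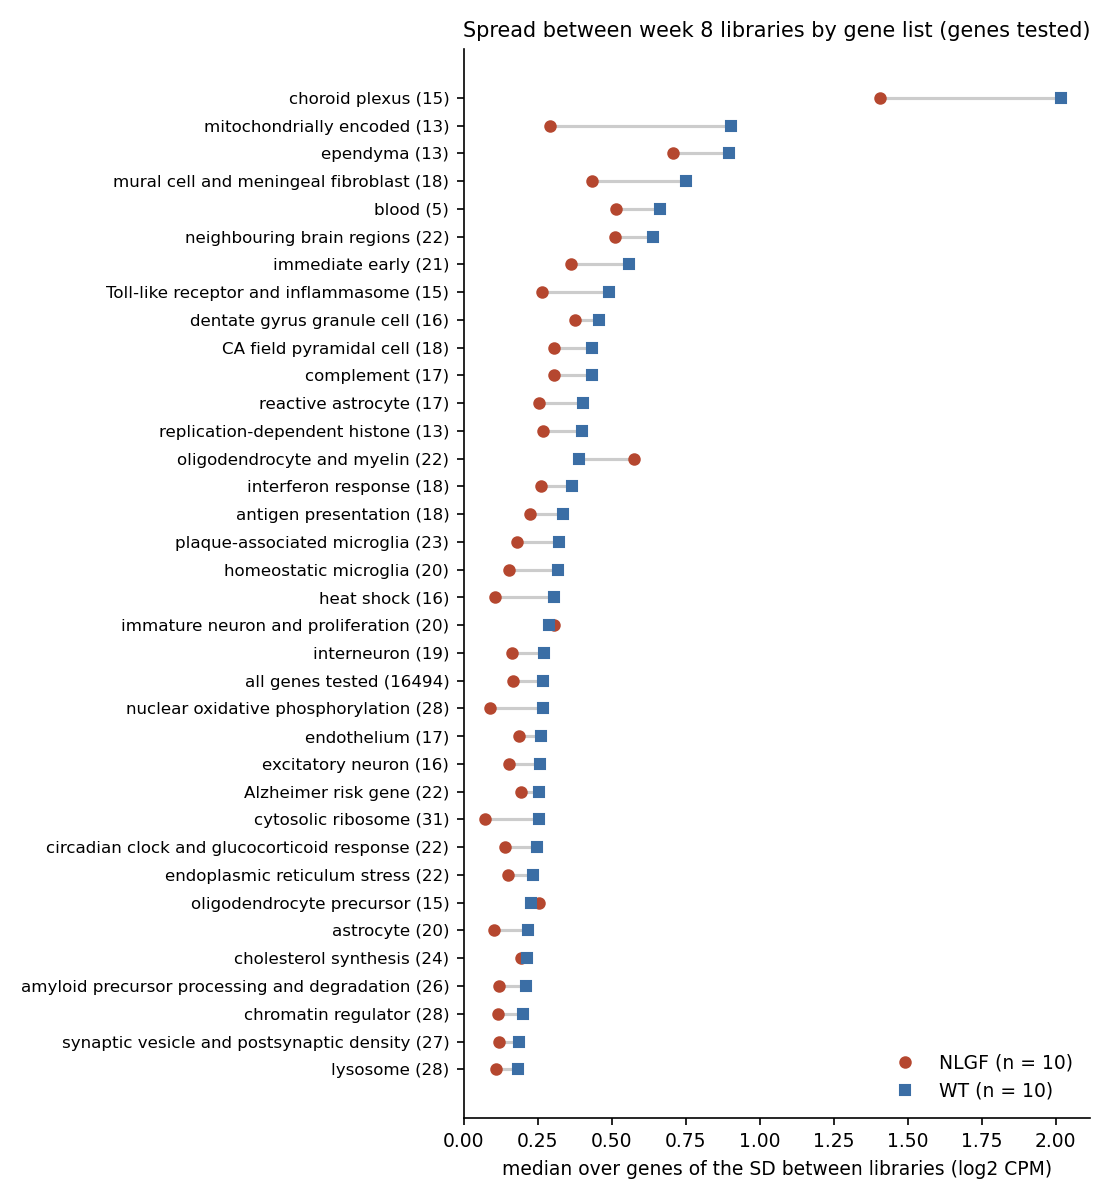
Median over genes of the SD between libraries (log2 CPM, n = 10 each) for each gene list, circles for NLGF and squares for WT, with the number of genes tested in brackets. WT lies to the right in most lists, with 0.29 in NLGF against 0.90 in WT for mitochondrially encoded genes, and NLGF lies to the right for oligodendrocytes and myelin (0.57 in NLGF against 0.39 in WT).

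An interaction term tested whether the effect of the genotype differed between males and females. edgeR called 0 of 16494 genes (0%), with a smallest adjusted p of 0.794 and 1012 genes at an unadjusted p under 0.05. It called 0 without the 3 libraries that stood apart, with 1006 at that p. The genes with the smallest p were Leprot, whose product regulates leptin receptor traffic, with 0.24 ± 0.113 in females and -0.44 ± 0.113 in males, Pdcl3 with 0.20 in females and -0.33 in males, and the unnamed transcript 9330020H09Rik with 0.78 in females and -0.37 in males. With 5 libraries per sex and genotype, intervals within each sex are wider: 11036 genes had an interval within 1.5-fold in females alone and 11549 in males alone.

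Set against week 24, the week 8 bounds can be read beside effects measured later. The difference of the genotype effects (week 24 minus week 8) was tested over 40 libraries with edgeR. Of 17348 genes 58 were higher at week 24 (0.334%) and 3 lower (0.0173%). Without the 3 week 8 libraries that stood apart, 60 were higher and 3 lower. Of the 58, 13 were on the plaque-associated list (27 tested there), 6 were complement genes and 27 were on any list. These genes were chosen by a difference that includes the week 8 values, so what follows describes them. Their median log2 fold change was 0.80 at week 24 and -0.06 at week 8. For all 58 the upper bound at week 8 lay below the estimate of week 24, and 50 had a week 8 interval within 1.5-fold.

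Itgax had the smallest p, with a difference of 4.01 ± 0.346. Its level was 3.63, 4.71 and 5.29 CPM in NLGF at week 24, against 0.0766, 0.282 and 0.614 CPM in WT. At week 8 it was 0.0975, 0.228 and 0.419 CPM in NLGF against 0.127, 0.234 and 0.436 CPM in WT. Cst7 differed by 5.28 ± 0.503, with a log2 fold change of 4.53 at week 24. Mpeg1 had 1.09 ± 0.0691 at week 24 and -0.03 at week 8, a difference of 1.11 ± 0.0976, and Ctss differed by 0.79 ± 0.0797. Trem2 (1.13), Tyrobp (1.12), Cd68 (1.11), Clec7a (4.07) and the chemokine Ccl6 (2.32) differed as well, each with an adjusted p under 0.05 from edgeR. Outside microglia, Gfap differed by 0.92 ± 0.189 and C4b by 1.03 ± 0.210. The 3 genes lower at week 24 were Cox8a, a subunit of cytochrome oxidase (-0.32 ± 0.0729), and the gene models LOC108167575 and LOC108168884. None of the 3 was called with all 60 libraries in 1 edgeR fit (adjusted p = 0.25, 0.126 and 0.0946, in that order), and DESeq2 called 8 genes lower. With a library left out the adjusted p of Cox8a lay between 0.0156 and 0.0683 in edgeR's fits, and without the 3 week 8 libraries that stood apart it was 0.0579. LOC108168884 was not called without WT female 3 of week 24 (adjusted p = 0.0511 in edgeR's fit).

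**Figure D5:**
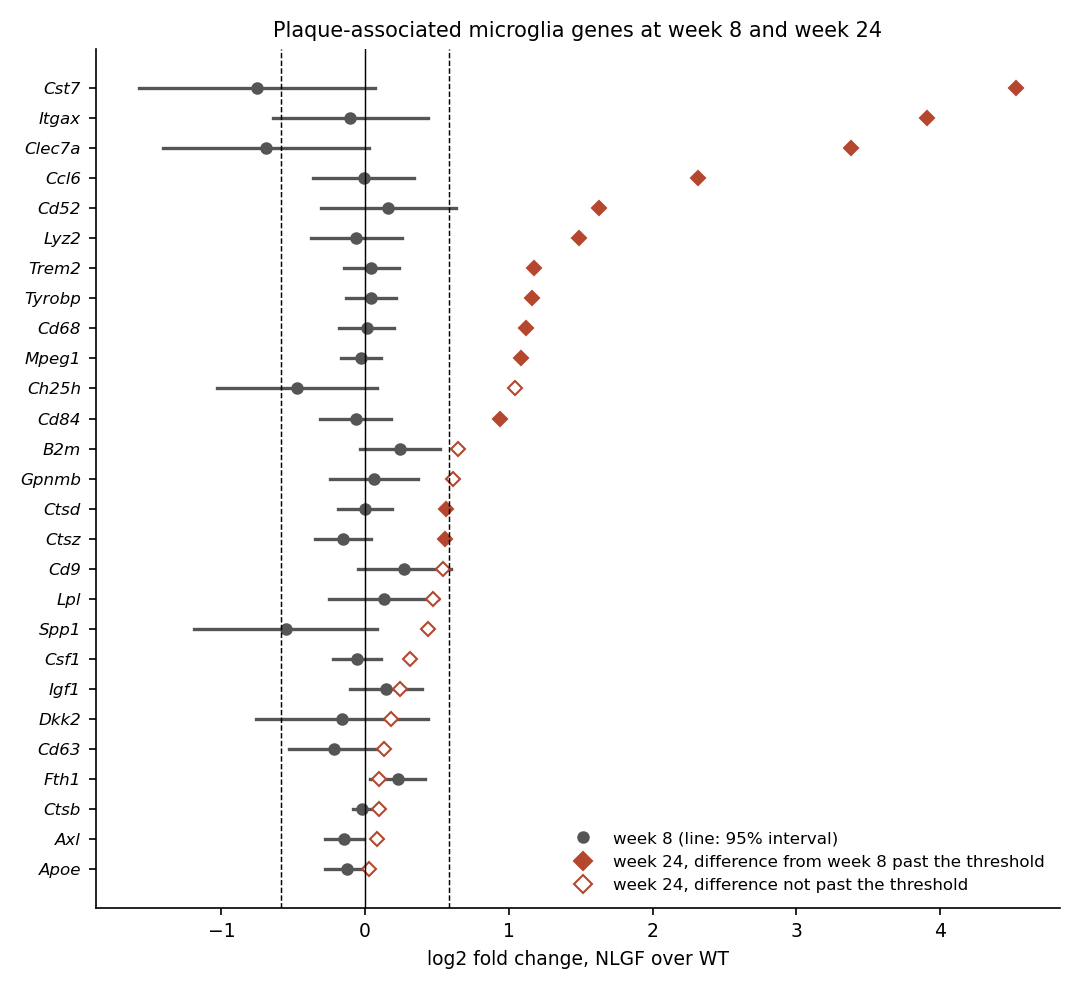
Log2 fold change of NLGF over WT for the 27 plaque-associated microglia genes tested over weeks 8 and 24: grey circles with 95% intervals for week 8, diamonds for week 24, filled where the difference between the weeks passed the threshold. Dashed lines mark 1.5-fold. The week 8 circles lie near 0 (median -0.03) and the week 24 diamonds mostly to the right (median 0.61).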

How the data were processed

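Counts per gene symbol for 60 hippocampus libraries were deposited by the authors as raw counts, and the 20 week 8 columns, matched to the labels by genotype, sex and number, were used for the main comparison. Per the submitters' processing notes, FastQC, STAR, edgeR and DESeq2 were used with the build mm10, with no version stated. How reads were assigned to genes, with which annotation and strand option, is not given in the sources used here, and overlapping and antisense genes cannot be told apart. A second deposited table gives, per the file headers, the authors' mean of normalised counts (a signal), the log2 fold change with its standard error (a score), and the p-value with its adjusted p-value for the genes they called at each age. Coordinates are from GENCODE vM21 (mm10).

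From the deposited counts, genes were filtered with filterByExpr (minimum count 10), scaled with TMM and tested in R 4.3.3 with the robust quasi-likelihood F-test of edgeR 4.0.16, 2-sided, with sex as a covariate and Benjamini-Hochberg adjustment over all genes tested (threshold 0.05). Of 35976 symbols 6362 had a count of 0 at week 8, and the 16494 genes tested held 99.9% of counts. Intervals of 95% came from the log2 fold change, its F statistic and the degrees of freedom of the fit. Levels are CPM scaled by TMM, and SDs of log2 CPM used a prior count of 2. The difference between weeks 24 and 8 was fitted on 40 libraries with sex within age. The fits were tested on simulated data. Floors of 3 counts cover counting error only.

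Alternatives were RLE scaling, DESeq2 1.42.0, voom with quality weights (limma 3.58.1), no filter, a filter of 1 CPM in 10 libraries, no sex term, all 60 libraries, each sex alone, 1 or 2 surrogate variables (sva 3.50.0), a replicate block, and each library left out. Fits without the libraries that stood apart were added after the data were seen.

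The week 8 comparison, the 35 gene lists (719 positions) and the tests were chosen with earlier results of these data known. The genes named are App; every gene of the deposited table at week 8; the 8 higher and 8 lower of smallest p with at least 1 CPM and no gene models; any gene called under an alternative; members of the lists of plaque-associated microglia, homeostatic microglia and amyloid processing; in the other lists up to the 3 of smallest p and the 2 of highest level; the 8 of widest spread at 10 CPM or more; the 3 of smallest p near App; and the 5 and 3 of smallest p for the differences between ages and sexes. Further genes named for weeks 24 and 8, and the 2 below 1 CPM, were chosen after their values were seen. A few genes that the rule names are not reported here.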

Additional observations from a re-analysis of the deposited data

Results flagged for a closer look

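In 302 sets of 10 libraries (110 genes named in the report, the gene lists and the library measures, each within a genotype), 47 had a highest or lowest library set apart from the rest by a gap past Dixon's critical value for 10 samples. Chance gives about 1 set in 20, and genes of a list share their libraries. No cause of these values was tested.

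The library labelled NLGF female 5 had an age score of -0.823, 17656 CPM on the oligodendrocyte and myelin list, 1415 CPM on the precursor list and 1873 CPM on the cholesterol synthesis list. Its Mbp was 5775 CPM and its Leprot 28.4 CPM. The same genes that are higher in WT at week 3 were high in it, as given in the report. NLGF male 4 was the highest NLGF library on the choroid plexus list (8311 CPM) and the ependyma list (107 CPM), with Ttr at 4891, Aqp1 at 41.6, Kcnj13 at 61.9, Slc4a5 at 55.0 and Tmem72 at 53.8 CPM. NLGF male 5 was highest on the immediate early list (1814 CPM), with Arc at 276 and Egr1 at 259 CPM. It was lowest on the Alzheimer risk list (3977 CPM), and it had Asb4 at 0.925 and Trh at 0.681 CPM. In other NLGF libraries Ccl3 was 0.335 CPM in female 1, Cpsf7 54.1 and Sdha 387 CPM in male 3, Ctss 39.6 CPM in male 2, Irf7 2.75 CPM in female 4 and Sdhb 82.4 CPM in male 1.

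WT female 1 was set apart most often in WT. Its ribosomal protein genes held 0.625% of counts, its Alzheimer risk list 6093 CPM and its chromatin list 3520 CPM. Camk2a was 7357, Csf1r 137, Aldh1l1 91.9, C4b 70.2, Serpina3n 48.9 and Tmem119 34.5 CPM there, all the highest in WT, while Adam10 (68.5 CPM) and Psenen (8.88 CPM) were the lowest. WT male 3 had Calr at 455, Chd8 at 209, Pvalb at 38.6 and Trh at 22.1 CPM. WT female 3 had Spp1 at 11.7 and Srgn at 4.35 CPM, with 139 CPM on the interferon list and 216 CPM on the blood list. WT female 5 had 3017 CPM on the immediate early list and Egr1 at 576 CPM. WT male 5 had 11181 CPM on the oligodendrocyte and myelin list.

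The genotype effect differed between weeks 24 and 8, by edgeR's test of the difference itself, for the following genes named in the report. The differences (log2, week 24 minus week 8) were 5.28 for Cst7, 4.07 for Clec7a, 4.01 for Itgax and 2.32 for Ccl6. They were 1.13 for Trem2, 1.12 for Tyrobp, 1.11 for Mpeg1, 1.11 for Cd68 and 1.03 for C4b. They were 0.92 for Gfap, 0.79 for Ctss, 0.57 for Ctsd and 0.56 for C1qb, and -0.32 for Cox8a, -1.05 for LOC108167575 and -1.39 for LOC108168884.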

How the results depend on the processing

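At week 8 edgeR called 0 genes in every alternative, each library left out in turn included (0 to 0). DESeq2 called 1 gene on the 20 libraries and 1 on all 60, namely Ablim1 and Trh, each absent from the other's calls. The count of genes within 1.5-fold was 13721 with RLE scaling, 13748 with DESeq2, 13929 with voom and 14203 with 2 surrogate variables, and lay between 13395 and 13704 with a library left out. The number at an unadjusted p under 0.05 moved more, from 909 without WT male 3 to 2123 without WT female 3, and against 1292 in the report it was 1979 of 29614 genes with no filter, 2084 with DESeq2 on all 60 libraries, 1936 in males alone and 631 in females alone. The interaction with sex gave 0 calls in every alternative, each library left out included (0 to 0). The count higher at week 24 than at week 8 was 52 to 67 with a library left out, 60 with RLE scaling, 74 with DESeq2 and 64 without WT female 1 and WT male 3. The count lower at week 24 was 3 in the report, 0 with all 60 libraries in 1 fit, 8 with DESeq2 and 2 to 5 with a library left out. The main fit did not pair the samples by replicate number. Over 10 pairs of the same sex and number the correlations of their deviations were -0.103 to 0.233, with 3 over 0.1. Pairs of unlike number were not compared, so these values cannot settle whether the numbers pair the samples. With a replicate block edgeR called 0 genes at week 8, with 1166 at an unadjusted p under 0.05 and 13613 within 1.5-fold, and 49 genes were higher at week 24 than at week 8. A fitted effect below 1 CPM rests on few counts, and there the median interval reached 0.51 on the log2 scale.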
